A study of Rattus norvegicus with 8 samples.

Results

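Claudins, occludin and zonula occludens 1 are the proteins that build tight junctions, and 10 of their genes were followed in the rat colon: Cldn1, Cldn2, Cldn3, Cldn4, Cldn7, Cldn8, Cldn15, Cldn23, Ocln and Tjp1. They were chosen by name, and their probes were found through the transcript accession that the array files give and the current rat symbol of that accession. All 10 had a probe and all 10 entered the tests, out of 19901 genes tested from 30367 probes. Cldn2 and Tjp1 had 2 probes each, of which the brighter was used, and the other members had 1.

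Colon was sampled mid-way along its length from 16 Wistar rats, all female and 6 weeks old, 4 for each diet. The diets were given for 3 weeks and were a reference diet (REF), the diet with 10 % cocoa (C10), a diet with cocoa fiber in the amount contained in that cocoa (CF) and a diet with inulin as the matching amount of soluble fiber (I). Each of 8 two-colour arrays carried 2 rats of different diets in Cy3 and Cy5, with C10 rats on arrays 1 to 4, I rats on arrays 5 to 8 and REF and CF rats on both sets. No gene was altered in these animals, and the 16 samples were 16 rats. The tissue was a whole piece of colon wall, so fewer epithelial cells and less RNA per epithelial cell cannot be told apart.

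Tight junctions seal the space between neighbouring epithelial cells near their luminal side and set how much water, ions and solutes leak past the cells. Claudins form the strands of the junction. Some of them tighten it, whereas others, Cldn2 and Cldn15 in the gut, line channels for small ions and water. Occludin is a further membrane protein of the strands, and ZO-1, the product of Tjp1, is a scaffold that ties the strands to the actin cytoskeleton. In the colon, claudins of both kinds are expressed along crypt and surface.

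The levels of epithelial genes were compared between the diets first, which does not show the cells that the signals of the members came from. Epcam, an adhesion protein of epithelial cells, lay between 14.62 and 15.27 (log2 normalised signal) in REF, between 14.91 and 15.54 in C10, between 14.57 and 15.07 in CF and between 14.73 and 15.02 in I. The mean of 9 epithelial genes ranged from 14.47 to 14.90 in REF, 14.46 to 15.09 in C10, 14.31 to 14.82 in CF and 14.46 to 14.70 in I, and the diets overlapped. Other facts of the rats were less even. Hoxb13, a homeobox gene of the posterior gut, lay at 6.60 in REF rat 4, 9.72 in CF rat 2 and 9.96 in I rat 2, and between 12.36 and 14.88 in the other 13 rats. A mean of 8 smooth muscle genes was 12.10 in C10 rat 1 and between 13.77 and 14.82 in the other rats. The rats also differed in their B cell genes, which lymphoid tissue in the colon wall expresses. The mean of 6 such genes (of 8 listed, 2 without a tested probe) was 9.71 in CF rat 3, 9.58 in I rat 1, 9.39 in C10 rat 1, 9.29 in REF rat 3 and 9.04 in I rat 3, and ranged from 6.82 to 9.29 in REF, 6.65 to 9.39 in C10, 6.86 to 9.71 in CF and 6.80 to 9.58 in I. It went with the array, numbered here in the order of the deposited samples: the 8 rats of the odd arrays, 2 of each diet, lay between 7.58 and 9.71, and the 8 of the even arrays between 6.65 and 6.99. The diets overlapped, and 0 of the 6 genes passed in any comparison of diets. Where a result moved with these values, they are given beside it.

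None of the 10 tight junction genes passed the test in any comparison of diets (limma, adjusted p below 0.05 over all genes). For C10 against REF, 0 of 10 passed, whereas 0.985 % of all genes did. The corresponding counts were 0 of 10 beside 0 % of all genes for CF against REF, 0 of 10 beside 0 % for I against REF, 0 of 10 beside 0.427 % for C10 against CF, 0 of 10 beside 0.558 % for C10 against I and 0 of 10 beside 0 % for CF against I. A test of any difference among the 4 diets passed 0 of 10 members and 0.392 % of all genes. The genes nearest to the threshold were Ocln, 1.43-fold higher in C10 with no overlap between the rats of the groups, and Cldn15, at 1.82-fold lower signals in C10 with overlapping rats.

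At an unadjusted p below 0.05, 3 of 10 members were found for C10 against REF (Ocln, Cldn15 and Cldn2), beside 17.1 % of all genes. For CF against REF it was 1 of 10 (Cldn8) beside 6.4 %, and for I against REF 3 of 10 (Cldn8, Cldn2 and Cldn4) beside 5.7 %. Among the supplemented diets, 2 of 10 were found for C10 against CF (Ocln and Cldn8) beside 13.5 %, 3 of 10 for C10 against I (Ocln, Cldn4 and Cldn8) beside 12.2 %, and 0 of 10 for CF against I beside 2.83 %. The test across all diets gave 3 of 10 (Ocln, Cldn8 and Cldn2) beside 12.2 %. Rank product, which the study's methods use, passed Cldn15 for C10 against REF and for CF against REF and no member in the other comparisons. Of the 19901 genes it passed 291 for C10 against REF and at most 133 for CF against REF. A model of the 8 within-array log ratios passed 0 of 10 members and 0 of all genes in every comparison.

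Groups that did not overlap were as few. For C10 against REF, the 4 rats of a diet lay wholly above or below the 4 of the other for 1 of 10 members (Ocln), and for 4.6 % of all genes. The same held for 1 of 10 (Cldn4) for I against REF, beside 2.04 %, and for 1 of 10 (Ocln) for C10 against I, beside 5.77 %. No member was separated for CF against REF (1.91 % of all genes), C10 against CF (3.57 %) or CF against I (0.98 %). With 4 rats against 4, an exact permutation test cannot give a p below 0.0286.

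**Figure D1:**
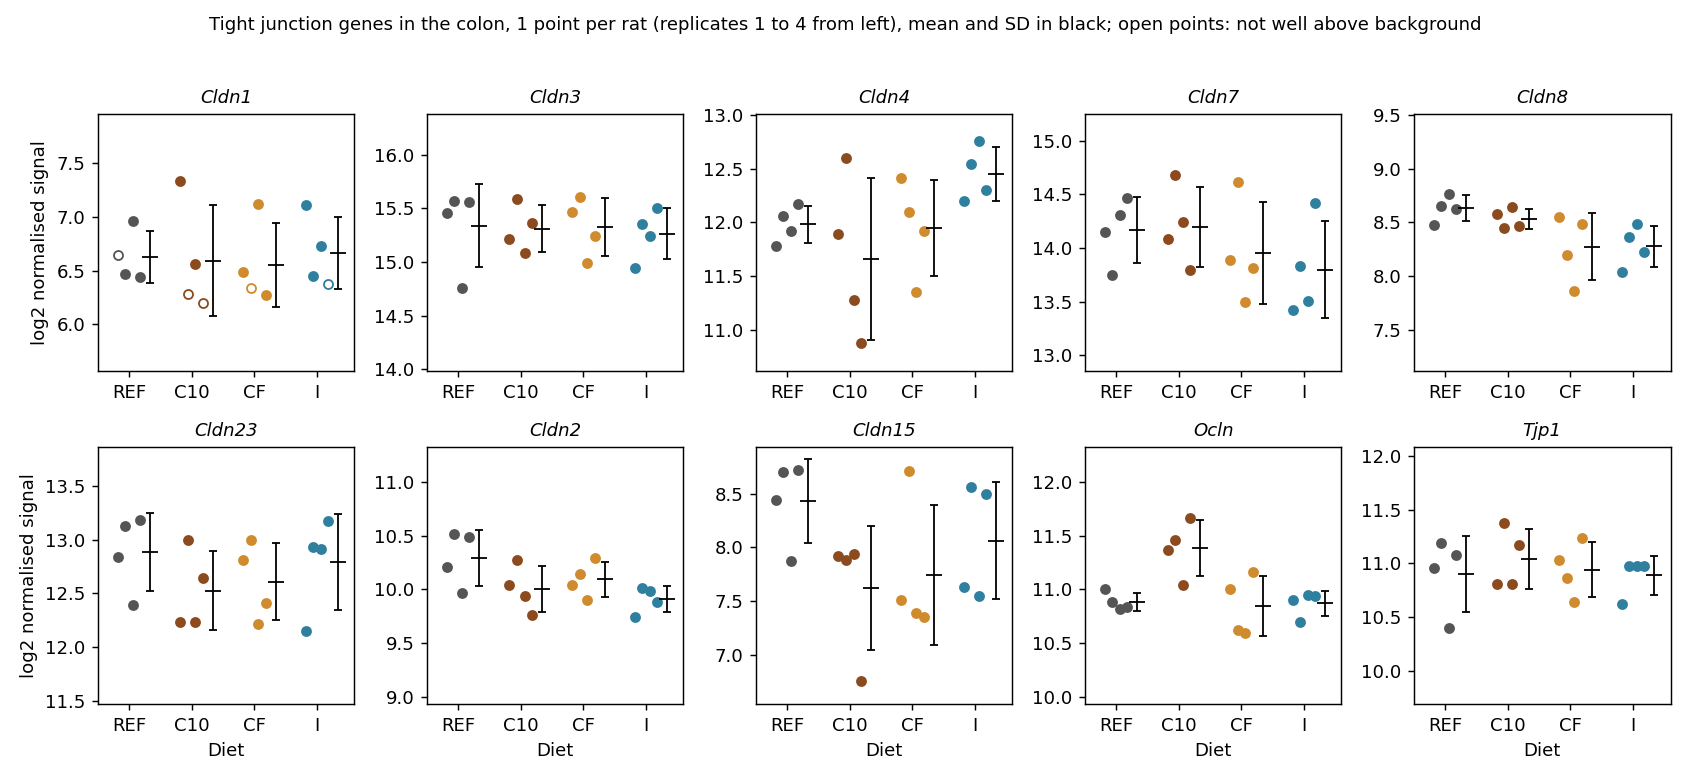
Log2 normalised signal of each of the 10 genes (y axis, every panel spanning the same number of log2 units) in each rat by diet (x axis). Points are rats in the order of their replicate numbers, open where the probe was not well above background, and the black mark is the mean with its SD over 4 rats. The C10 rats lie above the REF rats for Ocln only, and the I rats lie above the REF rats for Cldn4 only.

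Occludin had the smallest p of the 10 genes. Its log2 normalised signals were 11.36, 11.46, 11.04 and 11.67 in the C10 rats and 11.0003, 10.88, 10.82 and 10.83 in the REF rats. All 4 C10 rats lay above all 4 REF rats, though C10 rat 3 by only a little. The CF rats read 11.0033, 10.62, 10.59 and 11.16, and the I rats 10.90, 10.70, 10.95 and 10.94. The I rats, like the REF rats, lay below every C10 rat, whereas CF rat 4 lay above C10 rat 3.

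In C10 against REF, the Ocln signal was higher by 0.52 on the log2 scale (SE 0.12), or 1.43-fold with a 95 % interval of 1.19 to 1.71. It missed the threshold (limma, adjusted p = 0.0599, rank 284 of 19901 genes), and the exact permutation test of the 4 rats against 4 gave its smallest possible p, 0.0286 (two-sided). Against CF the difference of C10 was 0.51 (adjusted p = 0.0838, limma) and against I it was 0.50 (adjusted p = 0.129, limma). The differences of CF and I from REF were 0.00 (95 % interval -0.28 to 0.29) and 0.01 (-0.25 to 0.27), and neither passed. Whether Ocln passed changed when single rats were left out. It passed without REF rat 1 (0.67, adjusted p = 0.0424, limma), REF rat 3 (0.54, adjusted p = 0.0479), C10 rat 1 (adjusted p = 0.0458) or C10 rat 3 (adjusted p = 0.0382). Its rank by p in these fits was 70, 624, 176 and 154. Without REF rat 3 it thus passed at a lower rank than the 284 of all rats. The adjusted p also depends on the p-values of all genes, of which 36 to 679 passed with 1 rat left out. C10 rat 1 had the lowest smooth muscle mean of all rats (12.10), and the part of muscle in the Ocln values was not tested.

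Some features of the Ocln values touch that test. On the arrays that paired a C10 rat with a REF rat, the C10 signal was higher by 0.36 and 0.57, and on those that paired C10 with CF it was higher by 0.04 and 1.05. Rats that shared an array deviated in opposite directions for Ocln (likeness of array partners -0.64, where 1 means equal deviations), whereas the model assumed 0.42 for every gene. Without that assumption the difference of C10 from REF was 0.50 (adjusted p = 0.141, limma), and in the log-ratio model it was 0.54 (adjusted p = 0.326). With the mean of the posterior Hox genes as a covariate it was 0.32 (adjusted p = 0.24, limma). With the B cell mean as a covariate, chosen after seeing the data, it was 0.53 and passed (adjusted p = 0.0460, limma). The rank of Ocln by p was 284 in the main fit, 146 without the assumed array correlation and 1515 in the log-ratio model. It was 647 with the Hox covariate and 223 with the B cell covariate. The adjusted p and the rank thus did not always move together.

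The stretch before the start of Ocln is shown because Ocln was the member nearest to the threshold, and that of Cldn15 because its signals differed most between rats. Both are the 250 bases before the start that the RefSeq table of GRCr8 gives for the gene, read 5' to 3' on the strand of the gene, at chr2:33441199-33441448 (minus strand) for Ocln and chr12:25343626-25343875 (minus strand) for Cldn15. These starts lie inside the annotated spans of the genes (33391303 to 33442207 on chromosome 2 and 25334849 to 25345104 on chromosome 12), so the stretches are not those before the outermost end. Capitals mark the E-box CAGGTG and the GC box GGGCGG on either strand.
Ocln: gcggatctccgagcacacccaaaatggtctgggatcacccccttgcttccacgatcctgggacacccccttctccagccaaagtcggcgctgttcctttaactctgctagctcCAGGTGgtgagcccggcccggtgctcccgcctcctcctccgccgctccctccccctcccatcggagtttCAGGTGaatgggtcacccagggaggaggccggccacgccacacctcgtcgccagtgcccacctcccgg
Cldn15: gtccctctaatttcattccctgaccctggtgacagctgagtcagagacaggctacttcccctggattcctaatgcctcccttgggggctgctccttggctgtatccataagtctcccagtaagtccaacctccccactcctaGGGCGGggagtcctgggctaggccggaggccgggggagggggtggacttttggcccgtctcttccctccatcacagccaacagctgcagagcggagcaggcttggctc
The Ocln stretch held the E-box at 2 places and no GC box, and the Cldn15 stretch held 1 GC box and no E-box. The E-box is a sequence that repressors of the Snail family are known to bind in promoters of junction genes. Of the 7 members with an entry, the E-box was found in Ocln, Cldn3 (1 match) and Cldn7 (4 matches), and over all 27457 promoters 15.6 % held it. The GC box was found in Cldn1 (2 matches), Cldn3, Cldn7 and Cldn15 (1 match each), beside 32.4 % of all promoters. The letters CAATAAA, a motif of posterior Hox proteins, were found on either strand only in Tjp1 among the 7, beside 4.08 % of all promoters.

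Among the claudins that tighten the junction, Cldn4 and Cldn8 showed the differences with the smallest p. Cldn4 lies on chromosome 12 (GRCr8, 27388160 to 27389958) next to Cldn3 (27345075 to 27346547), and its protein limits the passage of sodium in several epithelia. Its log2 signals were 12.19, 12.55, 12.75 and 12.30 in I, against 11.78, 12.06, 11.92 and 12.17 in REF. Every I rat lay above every REF rat, the closest pair being I rat 1 and REF rat 4. The difference was 0.66 (SE 0.28), but did not pass (limma, adjusted p = 0.869; exact permutation p = 0.0286).

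The other diets were less uniform for Cldn4. The C10 rats read 11.89, 12.60, 11.27 and 10.87, so that C10 held both a rat among the highest of all 16 and the lowest of all, and the CF rats read 12.42, 12.10, 11.35 and 11.92. The SD was 0.75 in C10 and 0.45 in CF, beside 0.17 in REF and 0.25 in I. Between C10 and I the difference was -0.90 (SE 0.31, adjusted p = 0.252, limma), which passed without C10 rat 2, the highest of the diet (-1.26, adjusted p = 0.0386). C10 against REF gave -0.24 (95 % interval -0.84 to 0.37), and CF against REF 0.24 (-0.41 to 0.90).

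Cldn8, a claudin of the distal colon that holds back sodium, had narrow groups. The REF rats read 8.47, 8.66, 8.77 and 8.62 and the C10 rats 8.58, 8.45, 8.64 and 8.47. The CF rats read 8.55, 8.20, 7.86 and 8.48, and the I rats 8.04, 8.36, 8.48 and 8.22. CF rats 2 and 3 and I rats 1, 2 and 4 lay below every REF and C10 rat. CF rats 1 and 4 and I rat 3 lay within the range of REF and C10. Both fibers gave a difference from REF of -0.33 on the log2 scale, with SE 0.11 for CF (adjusted p = 0.686, limma) and SE 0.10 for I (adjusted p = 0.789). C10 differed from REF by -0.09 (95 % interval -0.30 to 0.12), from CF by 0.24 (adjusted p = 0.292) and from I by 0.24 (adjusted p = 0.371). Array partners were more alike for Cldn8 (likeness 0.92) than for 99.4 % of all genes, and the 2 lowest values, CF rat 3 and I rat 1, were both from array 5. Without array 5, an alternative chosen after seeing the data, the differences from REF were -0.25 (adjusted p = 0.999, limma) for CF and -0.28 (adjusted p = 0.529, limma) for I.

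Cldn1, Cldn3, Cldn7 and Cldn23 gave no p below 0.05 in any comparison. For Cldn3, one of the main sealing claudins of the colon, the differences of C10, CF and I from REF were -0.06 (95 % interval -0.40 to 0.27), 0.07 (-0.29 to 0.43) and 0.05 (-0.28 to 0.38). Its log2 signals ran from 14.76 to 15.57 in REF, 15.08 to 15.59 in C10, 14.99 to 15.60 in CF and 14.94 to 15.51 in I. The diets covered almost the same range, and REF rat 3, with a high B cell mean (9.29), was the lowest of all.

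For Cldn7, which lies in basolateral membranes as well as in the junction, the differences from REF were 0.09 (-0.34 to 0.52) in C10, -0.06 (-0.53 to 0.40) in CF and -0.28 (-0.71 to 0.15) in I. For Cldn23, a claudin of differentiated surface cells, they were -0.37 (-0.82 to 0.07), -0.13 (-0.62 to 0.35) and 0.06 (-0.38 to 0.51). Cldn1, a sealing claudin best known from skin, was close to the limit of measurement. Its probe was well above background in 11 of 16 rats (3 REF, 2 C10, 3 CF and 3 I), and its signals of 6.20 to 7.33 lay little above the lowest signals that counted so, which were 5.82 to 6.21 by rat. The 3 differences of Cldn1 from REF lay between -0.03 and 0.03, and their 95 % intervals lay within -0.50 to 0.46.

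**Figure D2:**
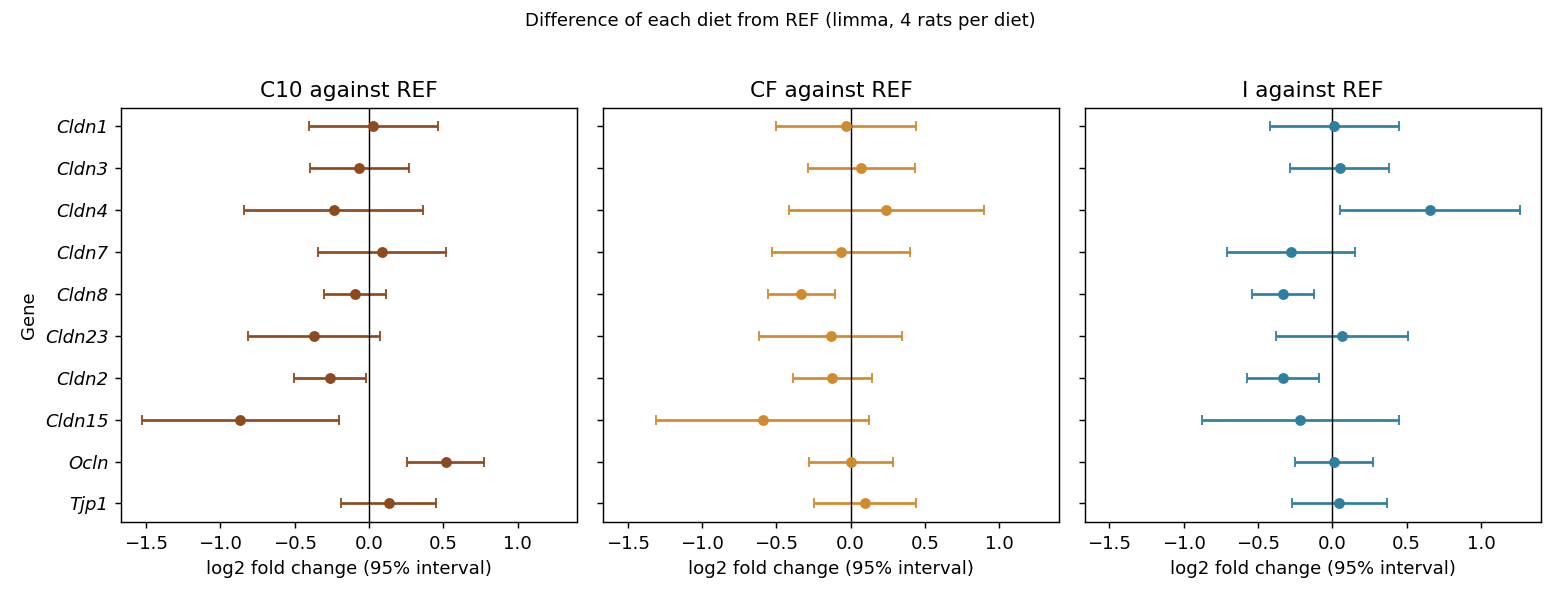
Log2 fold change of each gene (y axis) in C10, CF and I against REF (x axis, limma; points are estimates and bars 95 % intervals, 4 rats per diet). The intervals of Ocln, Cldn15 and Cldn2 exclude 0 in C10, that of Cldn8 in CF, and those of Cldn8, Cldn2 and Cldn4 in I, before adjustment for 19901 genes.

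No difference of the channel-forming claudins, Cldn2 and Cldn15, passed. Cldn2, which carries cations and water, read 10.20, 10.51, 9.96 and 10.49 in REF and 9.74, 10.01, 9.98 and 9.88 in I. The C10 rats read 10.04, 10.28, 9.93 and 9.76, and the CF rats 10.04, 10.14, 9.90 and 10.29. The I rats lay below the other REF rats but around REF rat 3. The differences from REF were -0.33 in I (SE 0.11, adjusted p = 0.834, limma), -0.26 in C10 (SE 0.11, adjusted p = 0.254) and -0.12 in CF (95 % interval -0.39 to 0.14). The second Cldn2 probe followed the first only in part over the 16 rats (Pearson r = 0.42), and its means differed from REF by -0.13 in I, -0.03 in C10 and -0.05 in CF, where the first gave -0.39, -0.29 and -0.20.

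Cldn15, which carries sodium and is known from the small intestine and colon crypts, was the member with the widest spread over rats. The REF rats read 8.44, 8.70, 7.87 and 8.72, and the C10 rats 7.92, 7.88, 7.94 and 6.76. The CF rats read 7.51, 8.71, 7.39 and 7.35, and the I rats 7.63, 8.56, 7.55 and 8.50. In REF 3 of 4 rats, in CF 1 and in I 2 lay above every C10 rat, and C10 rat 4 was the lowest of all.

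The difference of Cldn15 in C10 from REF was -0.87 (SE 0.31), or 1.82-fold, and did not pass (limma, adjusted p = 0.177; exact permutation p = 0.114, two-sided). In CF it was -0.59 (95 % interval -1.31 to 0.12), in I -0.21 (-0.88 to 0.45), and between C10 and I -0.65 (-1.37 to 0.07). Rank product, which ranks fold changes over pairs of rats, passed Cldn15 for C10 (estimated share of false positives 0.0484) and CF (0.0471) against REF. It passed 291 of all genes for C10 and at most 133 for CF. The limma difference for C10 depended on single rats, at -0.60 without C10 rat 4 and -1.21 without C10 rat 1. C10 rat 1 had the lowest smooth muscle mean of all rats (12.10), and the part of muscle in these values was not tested.

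The level of Cldn15 moved with Hoxb13 over the rats. All 3 rats with Hoxb13 below 10 (REF rat 4, CF rat 2 and I rat 2) were among the highest for Cldn15, and C10 rat 4, with the highest Hoxb13 (14.88), was the lowest. The coefficients were taken on signals with dye effects removed, unlike the rat values printed here. Over 16 rats, Pearson's r was -0.77 (permutation p = 8e-05) and Spearman's rho -0.93 (permutation p = 1e-05, the smallest these permutations can give). Adjusted over the 10 members, these p-values were 0.0008 and 1e-04. Without REF rat 4 and CF rat 2, farthest from the median of Hoxb13, r was -0.72. Within the 13 rats above 12, r was -0.87 and rho -0.88 (permutation p = 0.00012), and with the diet means removed r over 16 rats was -0.72. The relation was looked for after the values of both genes had been seen, so the p-values do not account for that choice. The permutations moved rats freely across diets and arrays. The share of all genes with such an r to Hoxb13 was not counted.

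No other member held such a relation after adjustment. The next were Ocln, with r = 0.54 (adjusted permutation p = 0.0999) and rho = 0.61 (0.0643), and Cldn23, with r = -0.56 (0.0784) and rho = -0.58 (0.0701). The Hox values also differed by diet. The mean of 5 posterior Hox genes ranged from 9.03 to 10.35 in C10, 7.60 to 9.25 in REF, 8.42 to 9.64 in CF and 8.50 to 9.18 in I, and 0 of its 5 genes passed for C10 against REF (2 higher and 1 lower at an unadjusted p below 0.05). With that mean as a covariate, the difference of Cldn15 in C10 from REF was -0.28 (adjusted p = 0.614, limma).

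**Figure D3:**
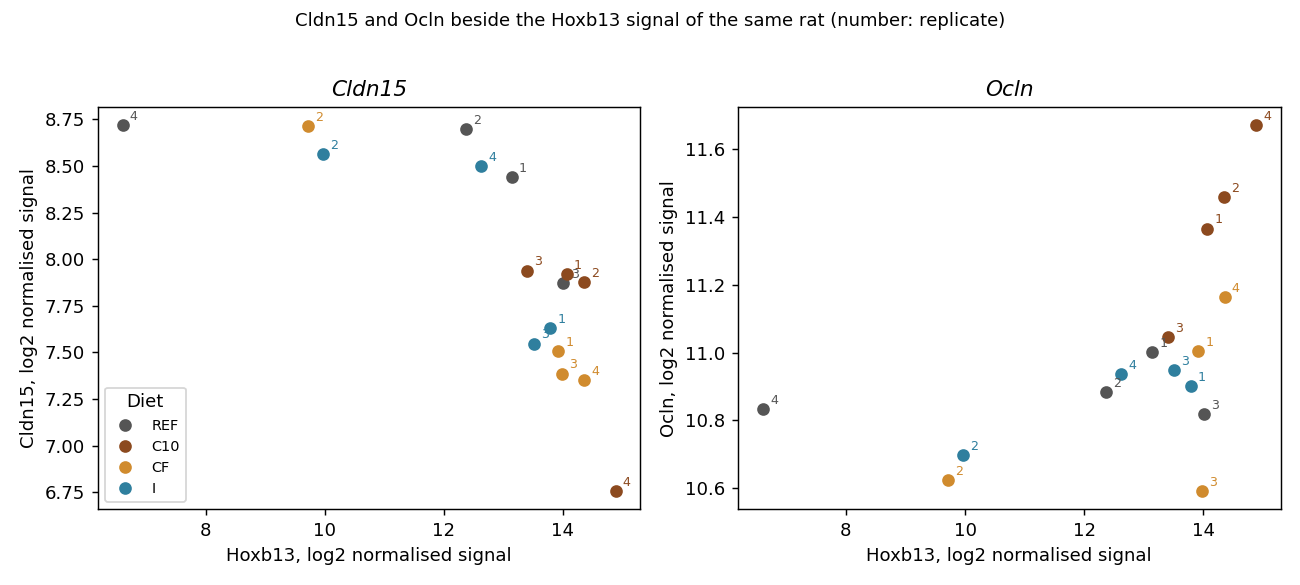
Log2 normalised signal of Cldn15 (left, y axis) and Ocln (right, y axis) against that of Hoxb13 in the same rat (x axis), coloured by diet and numbered by replicate, 16 rats. Dye effects are left in these signals, whereas they were removed for the coefficients in the text. Cldn15 is high in the 3 rats with the lowest Hoxb13 and lowest in C10 rat 4, whereas Ocln is highest in C10 rat 4.

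Tjp1, the scaffold of the junction, showed no difference that passed. Its log2 signals ran from 10.40 to 11.19 in REF, 10.81 to 11.38 in C10, 10.64 to 11.24 in CF and 10.62 to 10.98 in I. The differences from REF were 0.13 (95 % interval -0.19 to 0.45) in C10, 0.10 (-0.25 to 0.44) in CF and 0.05 (-0.27 to 0.37) in I. Its second probe followed the first with r = 0.65 over 16 rats.

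In signals with dye effects left in, members differed more between rats of a diet than genes did in general. The SD within diets had a median of 0.335 over the 10 members and of 0.169 over all genes tested, on the log2 scale. The largest were those of Cldn15 (0.55), Cldn4 (0.46) and Cldn7 (0.41), and the smallest those of Cldn2 and Cldn8 (both 0.20). Each diet held rats in both dyes, so these SDs mix dye with rat. The fitted dye effect (Cy5 minus Cy3) was largest in size for Cldn15 (-0.40) and Cldn7 (-0.38) among the 10 members. The size of the differences between diets was larger too, with a median absolute log2 fold change for C10 against REF of 0.185 over the members and 0.096 over all genes. Neither comparison was matched for signal level. All genes tested included dim ones, since a probe had to be well above background in only 4 rats. Whether members differ in this from genes of like signal was not tested. The signed median over the members was -0.08 for C10, -0.05 for CF and 0.01 for I against REF, where all genes had 0.01, 0.01 and 0.01.

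Part of that spread went both with the array and with the B cell mean. On array 5, I rat 1 and CF rat 3 had nearly equal signals for Cldn1 (7.11 and 7.12), Cldn3 (14.94 and 14.99), Cldn23 (12.15 and 12.21) and Tjp1 (10.62 and 10.64). Both were high for Cldn1 and low for the other genes, and they had the highest B cell means of the 16 rats (9.58 and 9.71). The other rats with a B cell mean above 9, C10 rat 1, REF rat 3 and I rat 3, read 7.33, 6.96 and 6.73 for Cldn1. The 8 rats of the odd arrays, with the higher B cell means, lay between 6.48 and 7.33 for Cldn1 and those of the even arrays between 6.20 and 6.47, without overlap, whereas the 2 sets overlapped for the other 9 members. For Tjp1 they ran from 10.40 to 11.03 and from 10.86 to 11.38. Cldn1 was not well above background in C10 rat 2, C10 rat 4, CF rat 2 and I rat 4 of the even arrays and in REF rat 1 of the odd ones. The split into odd and even arrays was made after seeing the data, and the share of all genes that it separates was not counted. The part of the B cell mean and of the array in these values was not tested. The likeness of array partners was 0.62 for Cldn1, 0.45 for Cldn23, 0.42 for Tjp1 and 0.41 for Cldn3, beside a median of 0.41 over all genes, so these members were not unusual in this. It was -0.13 for Cldn4 and -0.11 for Cldn15, whose differences between rats were not shared within arrays.

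**Figure D4:**
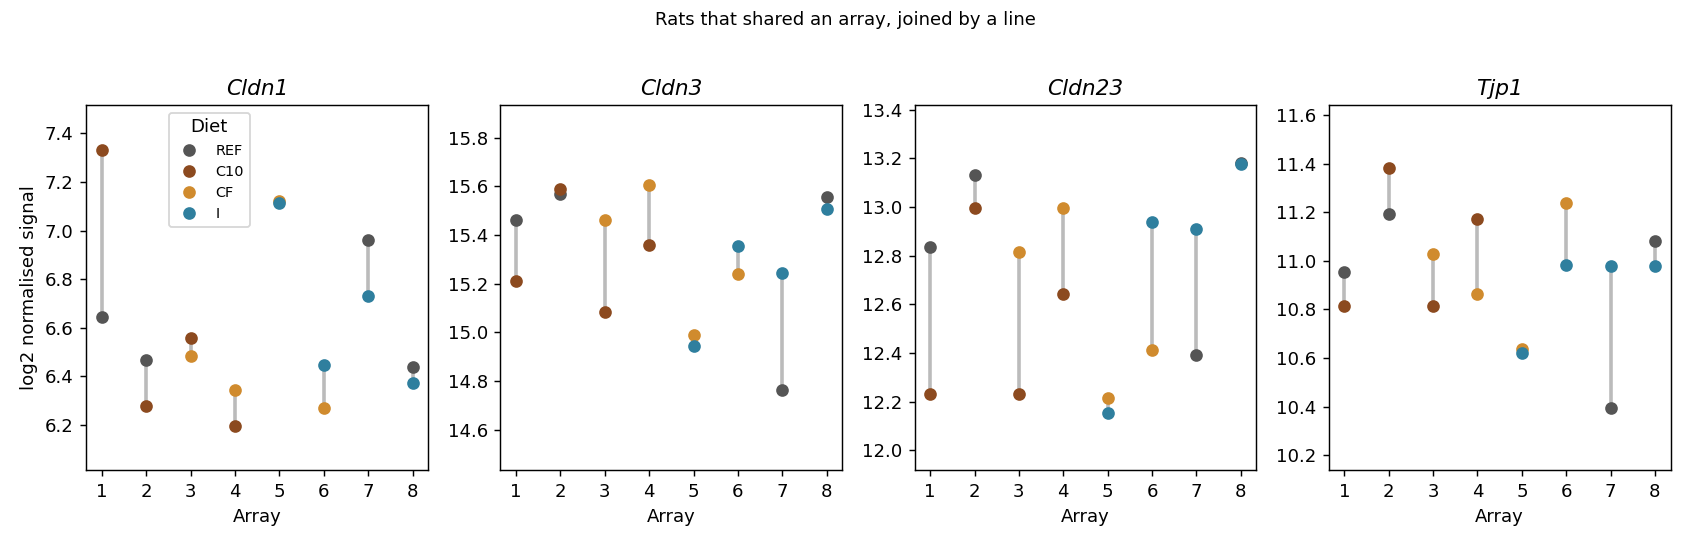
Log2 normalised signal (y axis) of Cldn1, Cldn3, Cldn23 and Tjp1 in the 2 rats of each array (x axis), joined by a line and coloured by diet. On array 5 the I rat and the CF rat nearly coincide in all 4 panels, high for Cldn1 and low for Cldn3, Cldn23 and Tjp1.

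Some members went together over the 16 rats, given here as a description with dye effects removed. Cldn3 followed Cldn23 (r = 0.85) and Tjp1 (r = 0.81), while Cldn1 ran opposite to Tjp1 (r = -0.81) and to Cldn3 (r = -0.70). Array partners enter these values together. For the 3 members with the widest spread over the 16 rats after dye effects were removed (Cldn15, Cldn4 and Cldn23), the 5 most similar genes were also listed. Cldn15 was followed most closely by Pzp, a protease inhibitor (r = 0.97), Fut9, a fucosyltransferase (0.97), Hsd17b6, a steroid dehydrogenase (0.96), Slc35g2 (0.95) and Kcnj5, a potassium channel (0.95). For Cldn4 they were Gprc5a (0.90), Nhs (0.87), Angptl6 (0.76), Prdm1 (0.76) and Clca4 (0.74), and for Cldn23 Col18a1 (0.88), Dhrs11, Nucb1, Hpgd and Akr7a3 (0.86 to 0.87).

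A wider list of 53 junction genes, among them other claudins, tricellular proteins, JAM proteins and polarity scaffolds, was also tested. Of these, 46 had a probe and 39 were tested, and 0 of 39 passed in any comparison (limma). At an unadjusted p below 0.05, 5 of 39 were higher and 3 lower in C10 than in REF, beside 17.1 % of all genes in either direction. In CF 2 were higher and 1 lower, beside 6.4 %, and in I 0 were higher and 1 lower, beside 5.7 %. These shares were near or below those of all genes. The median log2 fold change was 0.03 for C10, -0.01 for CF and 0.00 for I. The 5 higher in C10 were Marveld2 (0.23), which encodes tricellulin, Marveld3 (0.28), a relative of occludin, Lsr (0.25), a protein of the corners where cells meet, F11r (0.25), which encodes JAM-A, and Pals1 (0.34), a polarity scaffold. The 3 lower were Mpdz (-0.40), a scaffold with PDZ domains, Jam2 (-0.28) and Cldn17 (-0.21). None of these 8 passed, and their adjusted p-values (limma) lay between 0.123 and 0.249.

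Of that list, the genes with the largest differences were Mpdz and Pals1 in C10, Pard3 and Cldnd1 in CF, and Crb3 and Cldn5 in I. Pals1 read 9.87, 9.79, 9.82 and 9.48 in C10 and 9.42, 9.39, 9.46 and 9.29 in REF, so that all C10 rats lay above all REF rats (adjusted p = 0.173, limma). Mpdz overlapped, at 9.15, 9.62, 9.81 and 9.23 in C10 and 10.11, 9.87, 9.35 and 9.74 in REF. Pard3, a cell polarity gene, differed by 0.32 in CF (adjusted p = 0.686) and Cldnd1, a gene related to the claudins, by -0.23 (0.776). Crb3 differed by -0.19 in I (0.894) and Cldn5, a claudin of blood vessels, by 0.18 (0.932). In C10 against CF, Lsr was nearest to the threshold of the list (0.36, adjusted p = 0.0897). Of 8 adherens junction genes, which hold cells together below the tight junction, 7 were tested and 0 passed in any comparison. In C10 against REF, 6 were higher and 1 lower, and 1 of 7 had an unadjusted p below 0.05 (limma), beside 17.1 % of all genes. It was Jup (0.30, adjusted p = 0.104, limma), at 11.41 to 11.80 in C10 and 11.12 to 11.30 in REF. Jup is named after its values were seen.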

How the data were processed

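Colon RNA of 16 rats had been hybridised to 8 Agilent arrays. The authors extracted the scans with Agilent Feature Extraction 10.7.3.1, and the deposited files give, per spot and dye, a median intensity and a median local background intensity, not normalized. A further table of normalized values, with 8 columns of per-sample values that match no label, was not used here. Intensities were treated in limma 3.58.1 (R 4.3.3, statmod 1.5.0) by the steps that the study's methods name: normexp (offset 50), spatial loess (span 0.4), intensity loess (span 0.3) and Aquantile. Each rat's log2 signal was averaged over the spots of a probe, and a gene was taken by its brightest probe if that was well above background in 4 rats or more. Probes so measured made up 63.2 to 81.7 % by rat, the median intensity was 109.5 to 426.5, and 0 spots were saturated; the number of arrays limits the precision. Diet and dye were fitted over all 16 rats with the array as a block (correlation 0.420), and p-values were adjusted by Benjamini-Hochberg over 19901 genes. All arrays lay on 1 slide and carried 1 scan time, so neither could be tested as a batch. Fitted differences weigh comparisons within and between arrays and can differ from those of the means. The likeness of array partners is the shared part of their deviations after diet means and dye effects were removed.

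The pipeline was tested on simulated data. All members are named; of the wider junction list, genes that passed are named or, where none did, the 2 with the largest difference from REF in each diet, together with those at an unadjusted p below 0.05 in C10, which were added after their values were seen. Members and lists were chosen with earlier results of these data known. Alternatives in the processing were other background corrections, normalizations, filters and probe rules. Alternatives in the test were no dye term, within-array log ratios and a term for the set of arrays. The sets were the arrays with C10 rats and those with I rats, so that term partly coincided with diet. Further alternatives were Hox and epithelial covariates, rank product (100 permutations) and each rat left out. Promoter sequences are those of RefSeq (GRCr8).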

Additional observations from a re-analysis of the deposited data

Results flagged for a closer look

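Among the 40 groups of 4 rats formed by 10 members and 4 diets, 4 held a rat far from the other 3 of its diet (Dixon's test). That test flags about 1 in 20 groups of normally distributed values. The 40 groups were not independent, and the share over the groups of all genes was not counted. Whether 4 is more than other genes show was therefore not tested. Cldn15 was lowest in C10 rat 4, at 6.76 against 7.88 to 7.94 in the other C10 rats, and this rat also had the highest Hoxb13 and the highest Ocln signal of all. Cldn15 was highest in CF rat 2, at 8.71 against 7.35 to 7.51, which was also a rat of low Hoxb13 and shared array 4 with C10 rat 4. Cldn3 was low in REF rat 3, at 14.76 against 15.46 to 15.57, and this rat had a B cell mean of 9.29 against 6.82 to 7.58 in the other REF rats. Tjp1 was low in I rat 1, at 10.62 against 10.98 to 10.98, and its partner on array 5, CF rat 3, had the lowest Tjp1 signal of its diet. These 2 rats had the highest B cell means of all (9.58 and 9.71), and the part of the B cell mean and of the array in these values was not tested.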

How the results depend on the processing

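For C10 against REF, 0 members passed in the analysis reported, 1 (Cldn15) by rank product, 1 (Ocln) with the B cell mean as a covariate, and 0 to 1 with 1 rat left out, Ocln passing without REF rat 1, REF rat 3, C10 rat 1 or C10 rat 3. For CF against REF, rank product passed 1 (Cldn15). For C10 against I, leaving out 1 rat passed 0 to 1, Cldn4 passing without C10 rat 2. In every other alternative and comparison, the test of any diet difference included, the count of members passing was 0, as it was without array 5, without the within-array correlation and with odd or even array as a term. These 3 and the B cell covariate were chosen after seeing the data. The 12 differences of members at an unadjusted p below 0.05 kept their sign in all alternatives that fit a difference, which leaves out rank product. Of the other 48, 31 turned sign in at least 1. The 12 were picked by p in the same rats, so this contrast largely follows from that choice. For Ocln in C10 against REF the difference was 0.32 to 0.67 (limma, adjusted p 0.0382 to 0.326). The number of genes passing for C10 against REF, 196, was 155 with processed intensities, 67 with no dye term, 49 with the Hox covariate, 0 in the log ratios and 291 by rank product, and 36 to 679 with 1 rat left out. Cldn1 had no value where a probe had to be well above background in all rats. The cause of these changes was not tested. Depth is unknown on arrays, and Cldn1 was limited by its signal over background.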
